A study of Bombyx mori with 2 samples.

Results

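The C/T and G/A substitutions are the sites at which the reads of the silkworm epidermis carried T in place of a C of the genome, or A in place of a G. They were chosen from the deposited table of single-base variants by 3 conditions: the reference and alternative base were C and T or G and A, the site had 1 alternative base, and at least 10 reads covered it. This gave 6188 sites, 3129 C/T and 3059 G/A, among 17764 single-base substitutions with the same coverage (34.8%). The RNA came from epidermis of 4th-instar larvae at 6 hours after molting. There were 2 libraries, 1 of 932VR, a wildtype strain of plain silkworms, and 1 of the *q-lp* mutant with quail markings, which arose from 932VR and was kept by inbreeding. Each library was made from 3 silkworms together. The reads of both libraries were counted together at each site, so that no value can be given for 932VR or *q-lp* alone and no site was compared between the strains. A site listed here is a difference from the genome sequence of SilkDB, which was the reference for both strains.

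C/T and G/A are the same change seen from the opposite strands of the genome, and together with their mirror image, A/G and T/C, they make up the transitions. The other 8 types exchange a purine for a pyrimidine and are called transversions. Loss of an amino group turns cytosine into uracil, which is read as thymine, and this is a widely known origin of C/T changes in genomes; an enzyme that does so in RNA gives the same change in sequenced transcripts. In the second case the change follows the strand of the transcript, and it is listed as C/T for genes on 1 genome strand and as G/A for genes on the other. The table gives no strand, exon or codon for a site.

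The table held 45561 rows. Of these, 122 had more than 1 alternative base and 41 repeated a site under another gene, which left 45398 substitutions. C/T and G/A made up 15263 of them (33.6%) at any coverage, of which 6188 passed the minimum of 10 reads and 9075 did not. The share that passed was 40.5% for C/T and G/A and 38.4% for all other substitutions. At a coverage of 10, just inside the minimum, 106 of 452 C/T and G/A sites had both alleles, and at a coverage of 9, just outside, 96 of 466 did. The coverage of the 6188 sites had a median of 21 reads, with quartiles of 14 and 35, against a median of 20 and the same quartiles for the other substitutions. A coverage of 21 reads leaves wide counting error in the share of a single site, so the results below rest on numbers of sites.

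Transitions were 2.14 times as frequent as transversions, with 12100 against 5664 sites. Within the transitions, C/T and G/A were 1.05 times as frequent as A/G and T/C, with 6188 against 5912 sites. The 4 transition types were close in number, from 2927 T/C to 3129 C/T sites, while the transversion types ranged from 610 G/C to 820 A/T sites. The number of C and G bases covered by reads is not known, so these are numbers of sites and not rates.

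At most C/T and G/A sites every read carried the alternative base. This was so at 4516 of 6188 sites (73.0%, 95% Wilson interval 71.9 to 74.1), against 76.0% (75.2 to 76.7) of the 11576 other substitutions. Both alleles were taken as present where the alternative base made up 20 to 80% of the reads. They were present at 1438 C/T and G/A sites (23.2%, 22.2 to 24.3), at 2339 sites of the other substitutions (20.2%, 19.5 to 20.9), and at 21.3% of all substitutions together. The difference was 3.03 percentage points. The remaining C/T and G/A sites were few: 120 (1.94%) lay over 80% and under 100%, and 114 (1.84%) lay under 20%. For the other substitutions these shares were 2.08% and 1.75%. Most of the difference at 100% thus lay in the middle range. The table listed no site with an alternative share under 10.3% at any coverage, so lower shares were not seen for either class. The lowest alternative share at a C/T or G/A site was 11.1%.

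**Figure D1:**
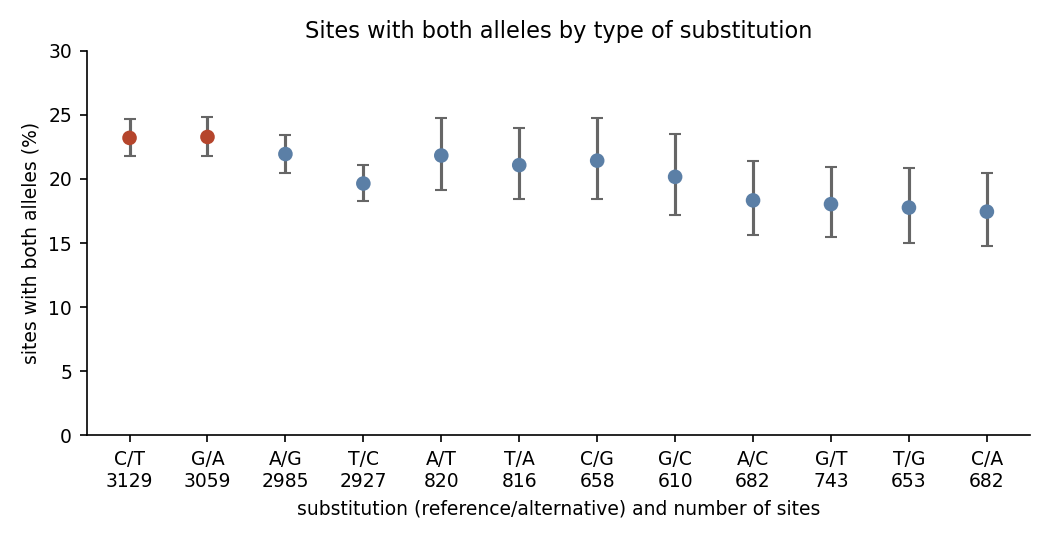
Percent of sites with both alleles (alternative base in 20 to 80% of the reads, both libraries together) for the 12 types of substitution, with the number of sites under each type. Points are shares and bars are 95% Wilson intervals; C/T and G/A (red) lie at 23.2% and 23.3%, above the 19.6% of T/C, and C/A is lowest at 17.4%.

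The share was nearly equal for C/T and G/A. Both alleles were present at 726 of 3129 C/T sites (23.2%, 21.8 to 24.7) and at 712 of 3059 G/A sites (23.3%, 21.8 to 24.8), which differ by 0.07 percentage points. Their mirror image was less even, with 21.9% (20.5 to 23.5) of A/G and 19.6% (18.2 to 21.1) of T/C sites, 2.30 points apart. The interval of A/G overlapped those of C/T and G/A, and that of T/C did not. Among transversions the share ran from 17.4% for C/A to 21.8% for A/T. The transversions between G and T or A and C, that is A/C, C/A, G/T and T/G, were all between 17.4% and 18.3%, whereas A/T, T/A, C/G and G/C were between 20.2% and 21.8%.

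Where both alleles were present, the alternative base was the less frequent one at most sites. Its median share was 43.4% of the reads for C/T and G/A (quartiles 31.6 and 58.1) and 44.0% (32.0 and 56.8) for the other substitutions. It was under 50% at 855 of the 1438 C/T and G/A sites (59.5%) and at 59.8% of the other sites with both alleles. The median was 44.0% for C/T and 42.9% for G/A. In steps of 10%, C/T and G/A were most abundant from 30 to 40%, with 300 sites or 4.85% of the class, and fell to 1.08% from 80 to 90%. Relative to the other substitutions they were more abundant in every step from 20 to 80%, by the widest margin from 20 to 30% (4.80% against 3.84% of sites).

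**Figure D2:**
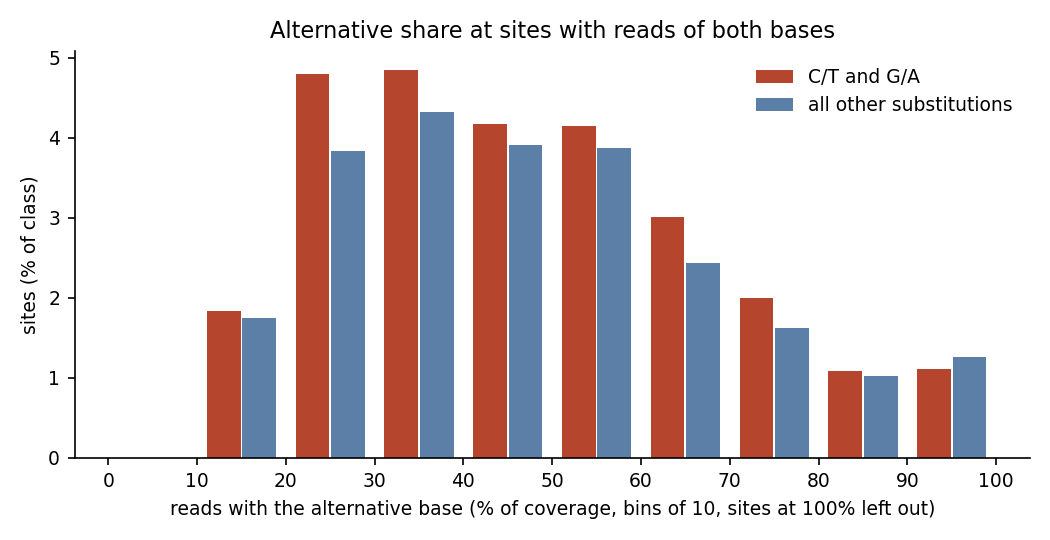
Distribution of the alternative share (percent of reads at a site, both libraries together, bins of 10, sites at 100% left out) as percent of all sites in the class, for C/T and G/A (red) and all other substitutions (blue). The red bars are higher in every bin from 20 to 80%, and the peak of the red bars is 4.85% of sites between 30 and 40%.

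C/T and G/A were above the other substitutions in each of 3 bands of coverage. The table listed no site covered by more than 100 reads. With 10 to 19 reads, 22.6% of C/T and G/A and 19.6% of other sites had both alleles. With 20 to 49 reads the shares were 24.5% and 20.9%, and with 50 to 100 reads they were 22.0% and 20.3%. In the deepest band the Wilson intervals overlapped (19.3 to 24.9 and 18.5 to 22.3), with 845 and 1668 sites.

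Sites of a gene share their transcripts, their depth and their haplotypes, so the classes were also compared within genes. In a Mantel-Haenszel analysis with the gene as stratum, the odds of having both alleles were 1.74 times higher at C/T and G/A sites than at other substitutions of the same gene (95% confidence interval 1.51 to 1.99). The adjusted p-value was 1.33e-14 (Cochran-Mantel-Haenszel test, two-sided, Benjamini-Hochberg over 7 comparisons of classes). Without strata the odds ratio was 1.20 (1.11 to 1.29). Against A/G and T/C alone the within-gene odds ratio was 1.58 (1.34 to 1.86, adjusted p = 1.15e-07, n = 2911 sites), and against transversions alone it was 1.86 (1.57 to 2.20, adjusted p = 1.09e-12, n = 2906 sites). C/T was above its reverse T/C (1.49, 1.16 to 1.91, adjusted p = 0.00249, n = 1116 sites) and G/A was above its reverse A/G (1.59, 1.24 to 2.04, adjusted p = 0.000382, n = 1144 sites). No difference was detected between C/T and G/A (0.863, 0.678 to 1.10, adjusted p = 0.268, n = 1171 sites) or between A/G and T/C (1.12, 0.862 to 1.46, adjusted p = 0.384, n = 1013 sites). Each n is the number of sites in genes that inform the comparison. These p-values take the sites of a gene as independent of each other and refer to the pooled reads of these 2 libraries, which have no replicates. Where sites of a gene are linked, as in BGIBMGA010471 below, the p-values can be too small and the intervals too narrow.

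The within-gene analysis draws on 440 genes that held both classes of site and both outcomes, with 4732 sites. In these genes 1039 of 1725 C/T and G/A sites had both alleles (60.2%), against 1455 of 3007 other sites (48.4%). The share was higher for C/T and G/A in 272 genes, lower in 154 and equal in 14. In 38 genes all C/T and G/A sites and none of the other sites had both alleles, and the reverse was found in 20 genes. The remaining genes carry no information on this question, since most genes were uniform. Of the 3555 genes with a substitution, 2643 had no site with both alleles and 399 had both alleles at every site. C/T and G/A made up 34.8% of sites in the first kind of gene and 32.8% in the second.

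**Figure D3:**
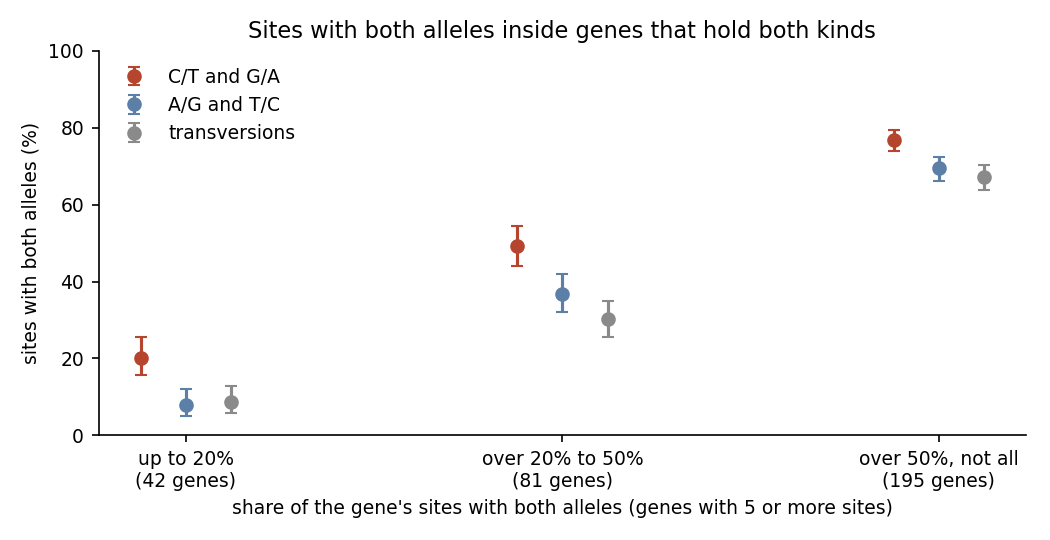
Percent of sites with both alleles in genes with 5 or more sites that hold both kinds of site, split by the share of the gene's sites with both alleles (x axis), for C/T and G/A (red), A/G and T/C (blue) and transversions (grey). Points are pooled over genes and bars are 95% Wilson intervals; in the first group of 42 genes C/T and G/A lie at 20.2% and A/G and T/C at 7.88%.

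In genes with 5 or more sites, C/T and G/A stood above the other classes whether sites with both alleles were rare or common in the gene. In 42 genes where at most 20% of sites had both alleles, 53 of 262 C/T and G/A sites did (20.2%, 15.8 to 25.5), against 42 of 503 other sites (8.35%, 6.24 to 11.1). Thus C/T and G/A were 34.2% of all sites in these genes and 55.8% of the sites with both alleles. In 81 genes with over 20% and up to 50%, the shares were 49.2% and 33.5%. In 195 genes with over 50% of sites but not all, they were 76.8% and 68.3%. These 3 groups of genes were formed by the same outcome, so the values are a description.

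At least 1 C/T or G/A site lay in 2367 of the 3555 genes (66.6%), on 211 of 250 scaffolds. They were thinly spread: 1079 genes held 1, 1062 held 2 to 5 and 226 held 6 or more, and the median was 2. For A/G and T/C, with 5912 sites, the number of genes with 6 or more was near this, at 208. The spread of the other classes over genes was otherwise not counted. The 10 genes with the most held 254 sites, 4.10% of all. Along the span of a gene they were more frequent at the ends, with 26.6% in the first and 24.8% in the last of 5 equal parts, as were the other substitutions with 24.8% and 26.6%. The nearest other substitution lay at a median of 36 bp for both classes.

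The share of C/T and G/A among all substitutions of a gene was tested against 34.8% in 481 genes with at least 10 sites. No gene passed (0% of genes, exact binomial test, two-sided, Benjamini-Hochberg adjusted p under 0.05), and the smallest adjusted p was 0.623. Every one of the 481 genes could have passed alone with a high enough share, but only 88 held enough sites to pass alone with a share of 0. At an unadjusted p under 0.05 there were 28 genes (5.82%), 23 above (4.78%) and 5 below (1.04%). The share had a median of 34.2% (quartiles 26.5 and 43.3) and a range from 0 to 70%. The 3 genes with the smallest p are given as a description. BGIBMGA012651 (Bm_scaf129, 54877 to 57580) had 3 C/T sites and no G/A site among 28 substitutions. Its sites were C55002T with 16 of 58 reads, C55103T with 33 of 46 reads and C55382T with 24 of 24 reads carrying T, where the first letter is the reference base, the number the position on the scaffold and the last letter the alternative base. In contrast, BGIBMGA011628 (Bm_scaf16, 3914530 to 3928275) had 14 among 22 and BGIBMGA000030 (Bm_scaf98, 47871 to 59327) had 12 among 18, all at 100%. Many of these sites lay close enough to share reads. In BGIBMGA000030, C48937T, C48944T, G48945A, G48946A, C48947T and C48949T were covered by 11 or 12 reads each. In BGIBMGA011628, G3917228A, G3917231A, G3917234A, G3917249A and C3917264T lay in a short stretch.

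The share was tested in the same way along the scaffolds. In windows of 1 Mb with at least 20 sites, 0 of 302 passed (0%, exact binomial test, smallest adjusted p = 0.630), and 16 had an unadjusted p under 0.05 (5.3%), 11 above (3.64%) and 5 below (1.66%). With windows of 0.5 Mb the count was 2 of 344 by the same exact test, both low: the first window of Bm_scaf44 with 6 of 53 sites (11.3%, adjusted p = 0.0367) and that of Bm_scaf84 with 15 of 89 sites (16.9%, adjusted p = 0.0367). In windows of 1 Mb the share had a median of 33.9% with quartiles of 30 and 39.5%. The highest was on Bm_scaf24 from 2000001 to 3000000, where 26 of 45 sites in 11 genes were C/T or G/A (57.8%), 9 of them with both alleles against 3 of the other sites. Next came Bm_scaf9 from 1000001 (57.1%), the first window of Bm_scaf61 and the second of Bm_scaf75 (54.1% each) and Bm_scaf22 from 3000001 (53.7%). The lowest was on Bm_scaf60 from 1000001 to 2000000, with 4 of 27 sites (14.8%). It was followed by Bm_scaf48 from 2000001 (18.8%), Bm_scaf2 from 4000001 (19.2%), and the first window of Bm_scaf138 and the second of Bm_scaf19 (20% each). Of the 5 highest windows, those on Bm_scaf61 and Bm_scaf22 had no site with both alleles, while that on Bm_scaf75 had both alleles at 15 of its 20 C/T and G/A sites.

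Within a gene, C/T and G/A sites were mixed. Among all genes, 911 held both, 720 only C/T and 736 only G/A. Of the 226 genes with at least 6 such sites, 219 held both, 105 had more C/T, 92 had more G/A and 29 had equal numbers. In an exact binomial test (two-sided) against an equal split, 0 of the 226 genes passed (0%, smallest adjusted p = 0.441). This count was largely set by the number of sites. Even with all sites of 1 kind, a gene needed at least 14 C/T and G/A sites together to pass alone. Only 25 of the 226 genes (11.1%) held 14 or more. The other 201 genes could not have passed alone at any split, and the 0 says nothing about them. By unadjusted p, 11 genes (4.87%) were under 0.05, 5 with more C/T (2.21%) and 6 with more G/A (2.65%). For A/G against T/C, the same exact test gave 0 of 208 genes by adjusted p and 9 (4.33%) by unadjusted p, 4 with more A/G (1.92%) and 5 with more T/C (2.4%), with 20 of the 208 genes large enough to pass alone.

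**Figure D4:**
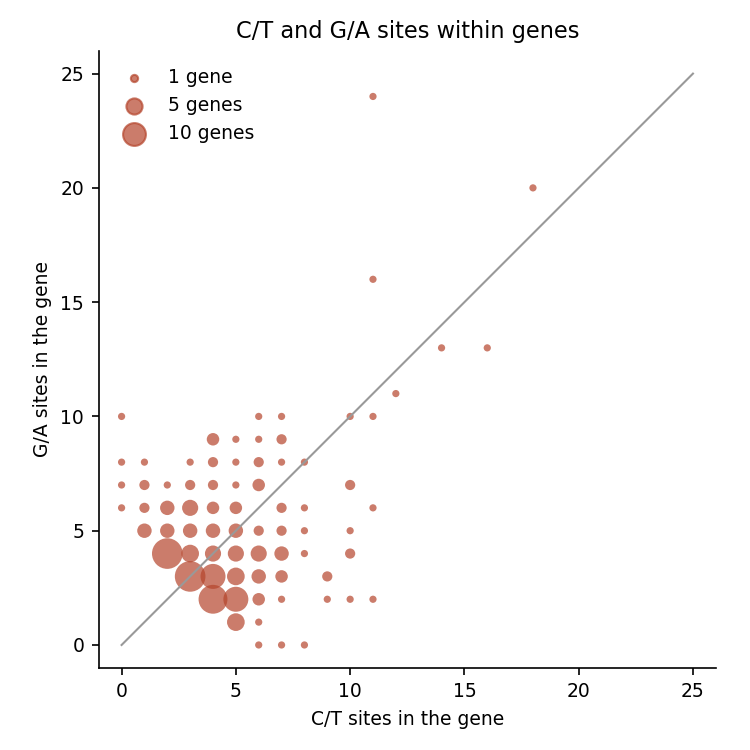
Number of C/T sites (x axis) and G/A sites (y axis) in the 226 genes with at least 6 such sites. The area of a point stands for the number of genes and the line marks equal numbers; genes lie on both sides of the line, with 105 below it and 92 above it.

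The 3 genes with the smallest p are given as a description. BGIBMGA004266 (Bm_scaf189, 55518 to 57241) had 10 G/A sites and no C/T site, all with A in every one of 13 to 95 reads. BGIBMGA000075 (Bm_scaf43, 2357552 to 2359738) had 8 G/A sites and no C/T site. In 7 of them every read carried A, and only G2359433A had both bases, with 10 of 18 reads carrying A. BGIBMGA003892 (Bm_scaf72, 841017 to 857749) was the reverse, with 8 C/T sites and no G/A site. T was carried by 2 of 12 reads at C844808T, 7 of 35 at C847256T and 3 of 10 at C841113T, but by 14 of 20 at C848789T, 16 of 21 at C845943T and 12 of 15 at C851314T, and by all reads at C847088T and C853972T. Thus the share of T ranged from 16.7 to 100% among C/T sites of this gene.

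C/T and G/A sites of the same gene had like alternative shares in most genes, mainly because both means were 100%. In 141 genes with at least 3 of each, the mean share was 100% for both in 79 genes. The means were within 5 points in 102 genes, which include these 79. C/T was higher in 30 genes and G/A in 32, and 4 genes differed by over 30 points. Across these genes the means of C/T and G/A had a Pearson r of 0.905, against 0.889 for A/G and T/C in 133 genes. Both values describe genes of one pooled table, in which many means are tied at 100%. Among 744 genes with at least 3 C/T or G/A sites, none of them had both alleles in 483 genes (64.9%), all had in 77 (10.3%) and some had in 184 (24.7%). Most genes were uniform over substitutions of all types as well. Of 3555 genes with any number of sites, 2643 had both alleles at no site and 399 at every site. When a C/T or G/A site was followed by another within 100 bp, the pair was alike in 90.4% of 1069 cases (226 pairs with both alleles at both sites and 740 at neither). For a C/T or G/A site next to another type the value was 91.1% of 3785 pairs, and for pairs of other types it was 90.8% of 3658. Of the pairs with both alleles at 1 or both sites, only 1 site had them in 31.3%, 32.0% and 34.5%, in the same order. Where both sites of a pair had both alleles, their shares differed by a median of 6.77 points for C/T and G/A pairs and 5.33 points for pairs of other types.

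The 10 genes with the most C/T and G/A sites show this range. BGIBMGA000117 (Bm_scaf43, 239421 to 244868) held 38, the highest number, with 18 C/T and 20 G/A. Both alleles were present at 26 of them (68.4%) and at 21 of 40 other sites (52.5%). Their alternative shares ran from 20 to 100% with a median of 72.0%. Close sites could differ widely, as in these pairs, picked after their values were seen. At C243047T 18 of 24 reads carried T, while at C243058T, 11 positions on, 6 of 22 did. At G244314A 7 of 10 reads carried A and at G244331A 3 of 13 did.

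BGIBMGA013376 (Bm_scaf50, 2755395 to 2774973) held 11 C/T and 16 G/A sites. Both alleles were present at 20 of 27 (74.1%) against 12 of 26 other sites (46.2%). The 17 C/T and G/A sites in the first 10 kb, counted from the lower coordinate since the strand is not stated, had a median share of 54.5%, and the 10 further on had 24.4%, none above 36.5%. At C2771424T, the highest of the latter, 31 of 85 reads carried T, and at G2771878A, the lowest, 9 of 63 carried A. The other substitutions of the gene had medians of 85.8% and 20.7% in the same stretches, so both classes were lower in the second stretch. The cut at 10 kb was set for this gene and not fixed in advance, so the contrast is a description.

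BGIBMGA010471 (Bm_scaf6, 731951 to 828001) held 11 C/T and 24 G/A sites, the most uneven split among the 10 genes (unadjusted p = 0.0410, adjusted p = 0.842, exact binomial test). Both alleles were present at 9 of 35, of which 8 were G/A and 1 was C/T, and at 6 of 71 other sites (25.7% and 8.45%). In the first 80 kb of the gene 1 of 25 C/T and G/A sites had both alleles. This was G776235A, with 25 of 61 reads carrying A, while all 58 other substitutions there were at 97.2% or more. Beyond 80 kb it was 8 of 10, from G816971A (25 of 39 reads) to G818355A (5 of 10 reads), and 6 of 13 other sites. The cut at 80 kb was likewise set for this gene and not fixed in advance.

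**Figure D5:**
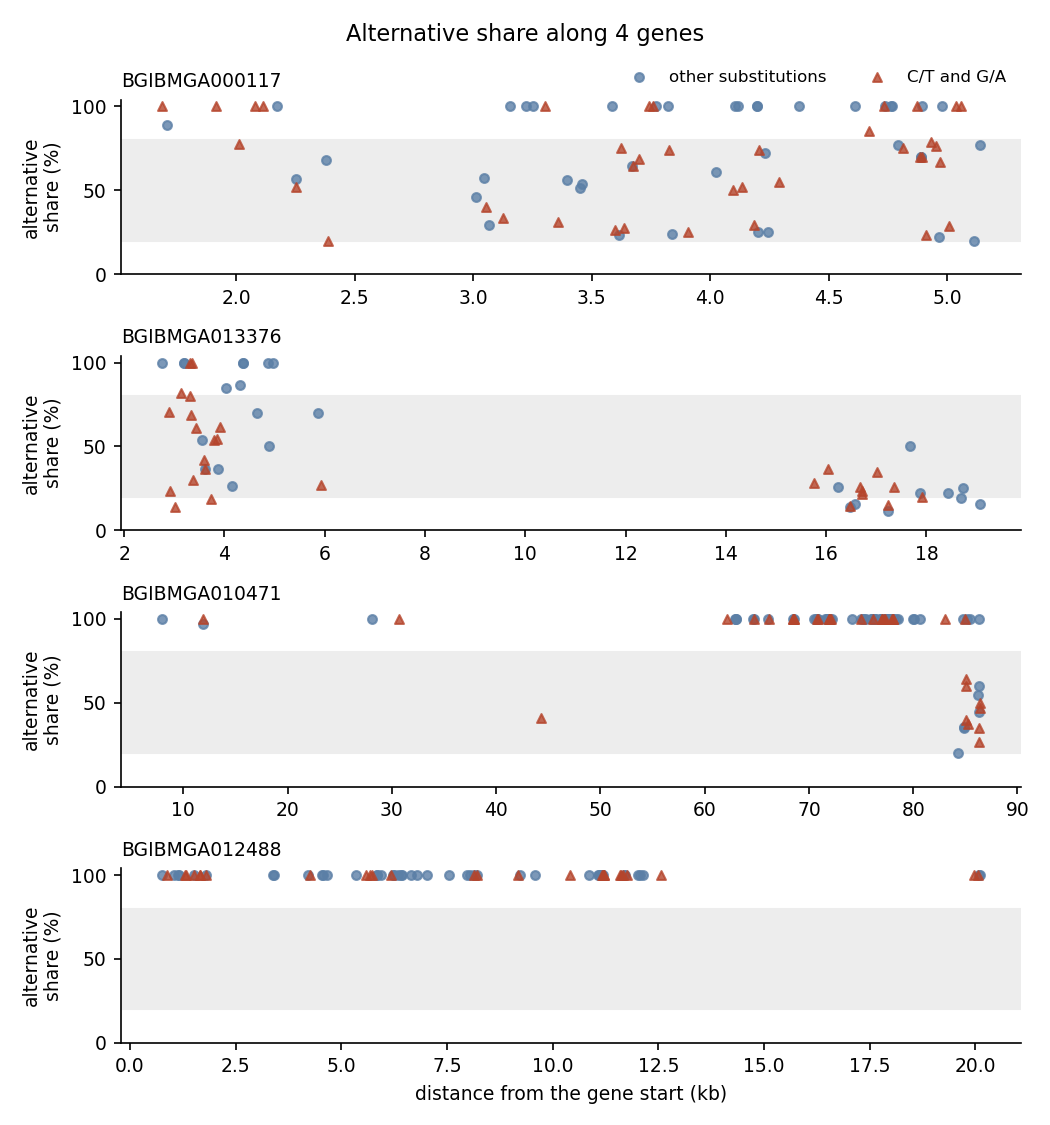
Percent of reads with the alternative base (y axis, both libraries together) at each site along 4 genes, against the distance from the gene start in kb (x axis), for C/T and G/A (red triangles) and other substitutions (blue circles); the grey band marks 20 to 80%. In BGIBMGA012488 all 71 sites lie at 100%, in BGIBMGA010471 the sites within the band lie near the far end apart from 1 C/T or G/A site, and in BGIBMGA013376 both classes are lower in the second stretch.

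BGIBMGA012488 (Bm_scaf56, 179966 to 201173) was uniform, with all 27 C/T and G/A and all 44 other sites at 100%. In 8 of the other 9 genes the share of sites with both alleles was higher for C/T and G/A. BGIBMGA002035 had 6 of 29 against 8 of 58, BGIBMGA012060 had 9 of 23 against 8 of 41, and BGIBMGA010779 had 11 of 21 against 13 of 31. BGIBMGA013531 had 2 of 20 against 1 of 37, and BGIBMGA004647 had 13 of 17 against 13 of 22. BGIBMGA006856 (Bm_scaf70, 734157 to 825505) was the exception, with 2 of 17 (11.8%) against 15 of 40 (37.5%). The 2 sites were C778390T, at 56.5%, and C779441T, at 60.0%. These single genes were not tested, and their sites are few.

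The lists of genes of pigment formation are short, so the numbers of substitutions in them are small. The shares of C/T and G/A given here stand beside 34.8% over all genes. Of 13 melanin genes, 4 had a substitution and 3 had C/T or G/A, 7 sites among 18 (38.9%), and all 7 had the alternative base in every read. *Yellow-e* (BGIBMGA007253, Bm_scaf92, 1506236 to 1527876) had G1527706A, C1527724T and G1527799A, covered by 38, 68 and 58 reads. *Yellow-h2* (BGIBMGA007255, Bm_scaf92, 1443891 to 1449149) had C1444242T, G1444299A and G1444688A, covered by 21, 26 and 22 reads. Both belong to the yellow family, whose members are known from melanin formation in insects.

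The ommochrome genes had 7 such sites among 19 (36.8%) in 3 of 4 genes. In the gene of phenoxazinone synthetase (BGIBMGA006740, Bm_scaf10, 4413306 to 4415258), an enzyme that joins molecules of 3-hydroxykynurenine in ommochrome formation, all 3 had both alleles. T was carried by 18 of 34 reads at C4414394T, and A by 8 of 33 reads at G4414971A and 7 of 17 at G4415125A. The 7 other substitutions of this gene had both alleles as well. Ommochrome-binding protein 2 (BGIBMGA007286, Bm_scaf92, 475785 to 476573), which binds this pigment, was uniform: C476054T, C476144T and G476334A were covered by 16, 53 and 27 reads, all with the alternative base. The pteridine gene with a substitution had none of C/T or G/A.

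The nuclear receptor gene *HR38* (BGIBMGA002964, Bm_scaf13, 5864591 to 5867200) had 3 C/T or G/A sites among 4 substitutions, all 3 with both alleles. No other of the 5 nuclear receptor genes held a C/T or G/A site (3 of 9 substitutions). T was carried by 7 of 14 reads at C5865588T and 9 of 13 at C5865774T, and A by 4 of 11 at G5866219A. These sites rest on 11 to 14 reads each. The other substitution of *HR38* did not have both alleles. Among the chitin genes, 4 of 8 held a substitution and 2 held C/T or G/A sites, 5 of 21 substitutions (23.8%). The chitinase gene BGIBMGA010240 (Bm_scaf15, 3001155 to 3015837), whose enzyme cuts chitin, had C3012718T in 16 of 17 reads, G3015750A in 11 of 13 and G3015834A in 15 of 22. The last of these was its only site with both alleles.

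Of the 12 strongly changed genes of the study, 7 had a substitution. Only mucin (BGIBMGA013949, Bm_scaf29, 272105 to 277655) held C/T and G/A sites, 9 of the 52 substitutions in these genes (17.3%). It had 4 C/T and 5 G/A among 34 substitutions, covered by 29 to 78 reads, and every read carried the alternative base. The 208 genes of cuticle proteins, the structural proteins that bind chitin in the cuticle, had 179 substitutions in 38 genes. C/T and G/A made up 45 of them (25.1%), 16 C/T and 29 G/A, in 20 genes. Both alleles were present at 21 of the 45 and at 41 of the 134 other sites, beside 23.2% and 20.2% over all genes. Of these 21, 17 lay in BGIBMGA010500 (12 of 12 sites) and BGIBMGA000388 (5 of 8 sites), which were picked after their values were seen. The same genes held 15 and 14 of the 41 other sites with both alleles, so both counts largely rest on a pair of genes. The glycine-rich cuticle protein gene BGIBMGA002385 (Bm_scaf14, 5107224 to 5108516) had G5107491A, G5107500A, G5108022A and C5108058T, covered by 85, 86, 73 and 43 reads without a read of the reference base. BGIBMGA002385 belongs to the 8 cuticle genes that the study lists as shared with the *quail* mutant. These had 6 such sites among 8 substitutions (75%) in 2 genes. All these lists are small beside 6188 sites and were not tested.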

How the data were processed

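RNA-Seq reads of both libraries were filtered and aligned by the authors to the silkworm genome of SilkDB; the variant caller, its filters and the scaffold build are not given in the sources used here. The authors deposited, for each site, the read counts of both alleles, their sum (the coverage), and the percent of the coverage held by the alternative allele. These columns name no library, and 1 table of 2 was used, since the other holds insertions and deletions. Sites with 1 alternative base, unique by scaffold, position and alleles, with a coverage of at least 10 were kept; a site listed under several genes was given to the first gene by identifier.

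Shares have 95% Wilson intervals, which cover counting error only and take sites as independent; PCR copies cannot be told from separate molecules. Mantel-Haenszel odds ratios with the gene as stratum were computed with statsmodels 0.14.6, and exact binomial tests with scipy 1.17.1 (Python 3.11.15), with Benjamini-Hochberg adjustment and a threshold of 0.05. Genes needed 6 C/T and G/A sites, or 10 sites of any type, and windows 20 sites. A/G against T/C, C/T against T/C, G/A against A/G and the comparison with transversions were chosen after seeing the data. The sites and gene lists were chosen with earlier results of these data known. The methods were tested on simulated data in which the sites of a gene were drawn independently of each other. Such data cannot test whether this holds for the real sites. Real neighbouring sites within 100 bp were alike in 90.4 to 91.1% of pairs, though these include genes with uniform sites. In BGIBMGA010471 the sites with both alleles lay near the far end apart from 1 C/T or G/A site. Sites of a gene can thus be linked, so the p-values and intervals of the Mantel-Haenszel analysis can be too small and too narrow.

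Genes named are the 10 with the most C/T and G/A sites, the 3 with the smallest p in each test across genes where none passed, and those of the paper's pigment, chitin, nuclear receptor, strongly changed and shared cuticle genes with at least 3 such sites. The 5 highest and 5 lowest windows are named; other names are said to be chosen later. Alternatives were other minimum coverages, other limits for both alleles, no strata, narrower comparison classes, sites with no neighbour within 10 bp, another null split and windows of 0.5 Mb. Strata of gene and coverage band and the omission of the 10 genes with the most sites were added later. Gene names are those of the paper; the RefSeq gene table matched 0 of the gene identifiers. No genome of these scaffolds was used here, so the sequence around the sites is not shown.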

Additional observations from a re-analysis of the deposited data

How the results depend on the processing

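The higher odds of both alleles at C/T and G/A than at other substitutions kept their direction and passed the threshold under all 10 alternatives, with odds ratios from 1.20 without strata to 1.86 against transversions. The value moved with the limits for both alleles, from 1.40 at 30 to 70% to 1.78 at 10 to 90%, and it was 1.72 without the 10 genes with the most sites and 1.77 with strata of gene and coverage band. For C/T against G/A the odds ratio lay between 0.810 and 0.996 in 8 alternatives and none passed the threshold. The counts of genes by the exact binomial test were 0 under the alternatives run. At an unadjusted p under 0.05 there were from 4 of 106 to 16 of 381 genes for C/T against G/A. For the share of C/T and G/A there were from 10 of 293 genes, with no other site within 10 bp, to 41 of 833 genes. With a minimum coverage of 20 reads it was 13 of 219, so these counts did not simply follow the number of genes tested. For C/T against G/A, 201 of 226 genes held too few sites to pass alone at any split, so this count had little room to change. The count of windows was 0 except with windows of 0.5 Mb, where 2 of 344 passed by the exact binomial test, both with fewer C/T and G/A sites: 6 of 53 on Bm_scaf44 (adjusted p = 0.0367) and 15 of 89 on Bm_scaf84 (adjusted p = 0.0367), each from position 1 to 500000. The cause was not tested. No paired analysis was possible because each strain has 1 library and the columns do not separate them; for the same reason no library could be left out. The shares of single sites are limited by the median coverage of 21 reads.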

Other observations

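In 28 genes with at least 5 substitutions, exactly 1 site had both alleles. This site was C/T or G/A in 16 genes (6 C/T and 10 G/A) and of another type in 12, while C/T and G/A made up 35.3% of all 292 sites in these genes. Examples, picked after their values were seen, are C1329620T in BGIBMGA010172 (Bm_scaf15), with T in 35.9% of 39 reads, and G603730A in BGIBMGA010475 (Bm_scaf6), with A in 39.1% of 23 reads. At the 16 sites the alternative share had a median of 54.8% and the coverage a median of 13 reads, against 32.6% and 27 reads at the 12 sites of other types. In 58 genes with at least 5 sites, all but 1 had both alleles, and the exception was C/T or G/A in 18 of them (31.0%), where C/T and G/A made up 37.7% of all 496 sites. These genes were picked by the outcome, so no test was run.

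Substitutions at directly neighbouring positions were rare. Among 239 such pairs, a C/T was followed by a G/A in 3 and a G/A by a C/T in 7, and all 10 of these had the alternative base in every read at both positions. So did 166 of all 239 pairs (69.5%), 6 of 7 pairs of C/T and 5 of 8 pairs of G/A.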
